A study of Saccharomyces cerevisiae with 48 samples.

Results

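The genes described here are the 45 budding yeast genes named PRP, LSM, SMB, SMD, SME, SMX or SNU with a number, which encode proteins of the spliceosome and close relatives. They were picked from 5332 genes tested by a rule on gene symbols, set with earlier results of these data known. Each is read by 1 probe set, and all 45 passed the filter on low signal. PRP46, the gene given as the marker of the set, was among them.

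RNA was taken every 4 min from 1 continuous culture of Saccharomyces cerevisiae strain IFO0233, a strain whose respiration oscillates with a usual cycle of 40 to 45 min, and was hybridised to 48 Affymetrix Yeast 2.0 arrays. The control group was 11 samples from 13.8 to 14.5 h after inoculation, 1 untreated cycle. The phenelzine group was the next 37 samples from 14.6 to 17.0 h, after addition of phenelzine, a monoamine oxidase inhibitor, at a dose not given in the sources used here. The stated purpose was to lengthen the cycle with this agent. Both groups share the strain, the vessel and the medium feed. There was no replicate culture, so successive samples of the same vessel take the place of replicates, and p-values reflect their scatter alone. An untreated culture followed over the later hours was not analysed here, so the drug and slow drift of the culture cannot be told apart. Times below are minutes from the first phenelzine sample, so control samples have negative times.

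The spliceosome removes introns from precursor messenger RNA. Small nuclear ribonucleoprotein particles (snRNPs) recognise the intron, and a series of RNA helicases then drives its remodelling, catalysis and disassembly. Sm proteins form a ring on the U1, U2, U4 and U5 RNAs, and Lsm proteins form a like ring on U6 RNA. In budding yeast few genes carry introns, but the ribosomal protein genes are rich in them. Some of these proteins also work elsewhere: Prp43 and Snu13 take part in making ribosomes, and the ring with Lsm1 acts in the decay of messenger RNA in the cytoplasm.

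Some measures differed between arrays for reasons the groups do not hold. The median signal of a column lay between 32.4 and 86.8 intensity units over the 48 arrays, and values were therefore quantile-normalized before testing. Array number 91 is missing from the sequence of array names. The ratio of 3' to 5' signal of the dap spike-in control, on the log2 scale, was 1.59 ± 0.13 (SD, n = 32) before the missing number and 2.40 ± 0.23 (SD, n = 16) after it, while that of ACT1 was 0.37 and 0.40. All 16 arrays after it belong to the phenelzine group, as do all 7 arrays with name suffix 02. The level, rhythm and slope results are given also on the arrays before the missing number.

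Most of the 45 genes cycled after phenelzine, but most by little. A cosine and sine of 48 min passed the test in 36 of 45 genes (80%), against 87.8% of all tested probe sets (limma moderated F test, Benjamini-Hochberg adjusted p under 0.05). The 48-min period was taken from earlier results of these data. The amplitude is the log2 distance from the fitted mean to the fitted peak. Its median was 0.12 over the 45 genes and 0.23 over all tested genes. In the untreated cycle, a rhythm of 44 min passed in 23 genes (51.1%), against 69.4% of all tested probe sets, with a median amplitude of 0.16 against 0.21. There were 21 genes that passed in both groups, 15 with phenelzine alone, and 2 in the control alone (PRP42 and SMD2). The remaining 7, LSM7, PRP18, PRP31, PRP38, PRP46, SMX3 and SNU56, passed in neither. Passing in 1 group only does not show that the groups differ, and the test of that difference is given further on. On the 21 phenelzine arrays before the missing number 32 genes were rhythmic, 30 of them among the 36, against 82.5% of all tested probe sets, with amplitudes of 1.24 for PRP43 and 0.75 for SNU13. On the values as deposited 21 passed, against 79.6%.

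**Figure D1:**
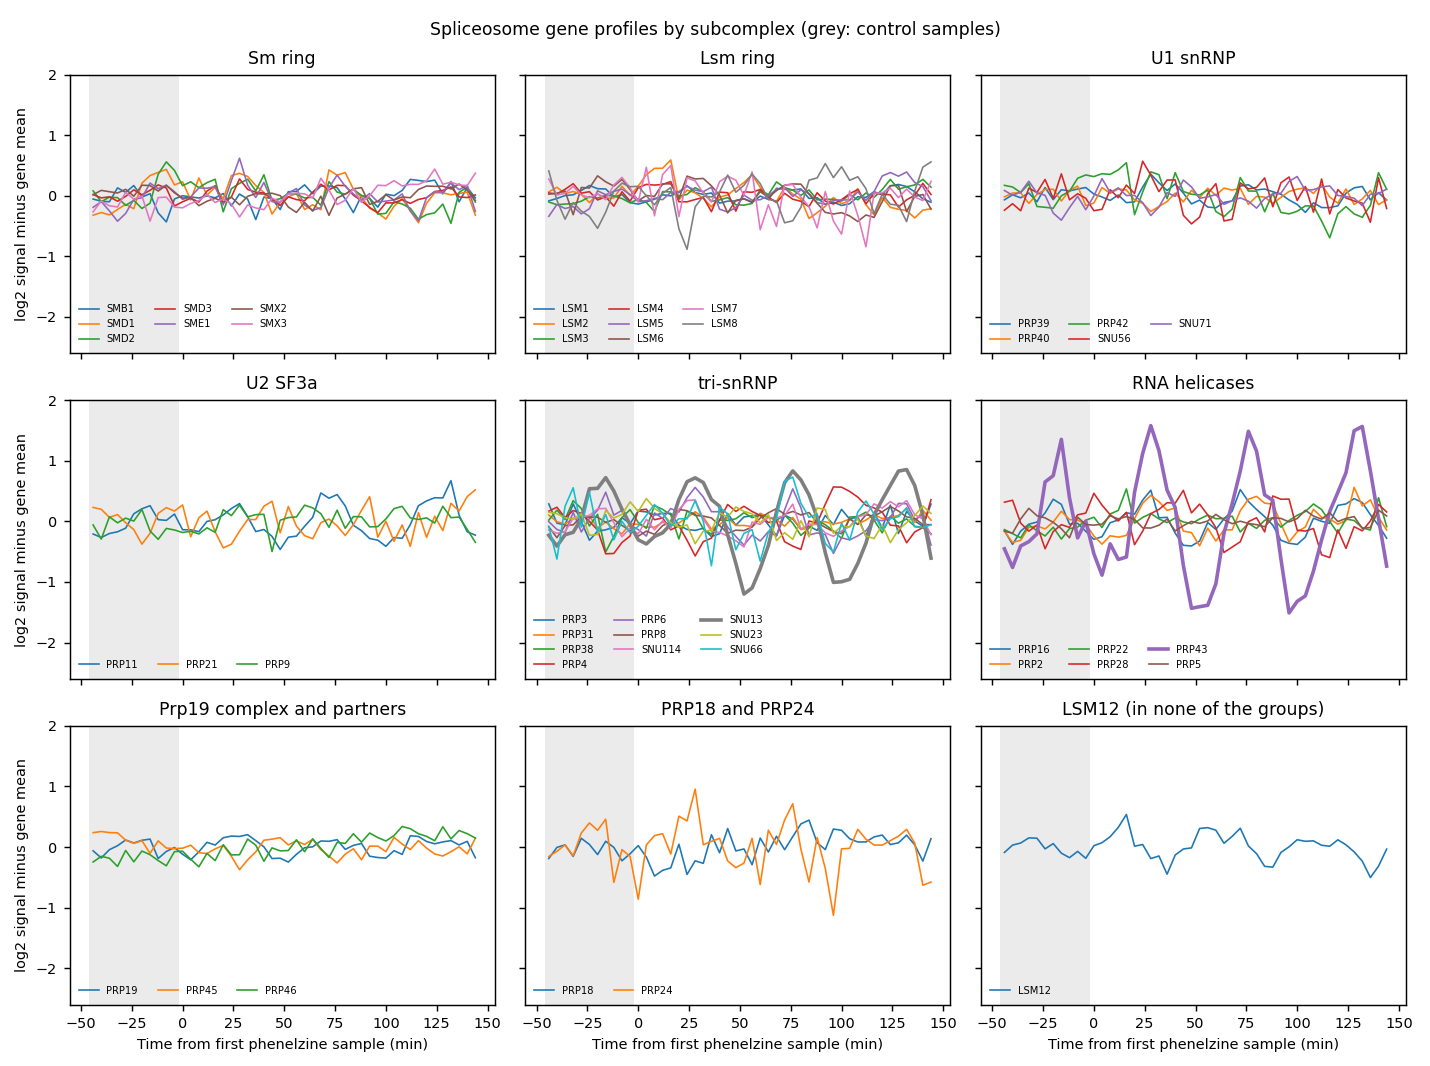
Log2 signal of each gene minus its mean over 48 arrays (vertical axis) against time from the first phenelzine sample (min, horizontal axis), with 1 panel for each group of genes and 1 line for each gene. Grey shading covers the 11 control samples. PRP43 among the helicases and SNU13 in the tri-snRNP panel swing far more than the other lines.

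PRP43 and SNU13 stood apart from the rest of the set by the size of their cycle. PRP43 encodes the helicase that takes the spent spliceosome apart and that also acts in ribosome synthesis. Its log2 signal in the control had a lowest value of 9.06, a median of 9.62 and a highest value of 11.18, and after phenelzine these were 8.31, 9.87 and 11.40. The groups overlapped, with 4 of 37 phenelzine samples above the highest control and 9 below the lowest, and the highest phenelzine signal was 8.52-fold the lowest. The fitted amplitude was 0.77 ± 0.11 (SE) in the control (adjusted p = 0.00024) and 1.26 ± 0.08 with phenelzine (adjusted p = 3.3e-16). Of all tested probe sets, 98.2% had a smaller amplitude with phenelzine. Fitted with the period used for the control, the first phenelzine cycle alone gave PRP43 an amplitude of 1.09. Smoothed maxima fell at -20, 28, 76 and 132 min.

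SNU13 encodes an RNA-binding protein shared by the U4 snRNP and the box C/D small nucleolar particles that guide the modification and processing of ribosomal RNA. Its log2 signal ran from 11.92 through a median of 12.37 to 13.05 in the control, and from 11.13 through 12.39 to 13.18 with phenelzine, a 4.16-fold range. Here too the groups overlapped. The amplitude was 0.51 ± 0.03 (SE) in the control (adjusted p = 8.6e-07) and 0.81 ± 0.05 with phenelzine (adjusted p = 3.2e-15), larger than in 93.7% of tested probe sets. Fitted with the period used for the control, the first phenelzine cycle alone gave 0.55, close to the control. The lowest value was 11.95 in the first phenelzine cycle, 11.13 in the second and 11.32 in the third. The larger swing of SNU13 thus came with the later cycles. Its smoothed maxima, at -20, 28, 76 and 128 min, fell at the sample of the PRP43 maximum or the sample before it. Under all the settings tried, the phenelzine amplitude of PRP43 stayed between 1.04 and 1.26 and that of SNU13 between 0.68 and 0.93.

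The UTP genes encode the small subunit processome, which builds the small ribosomal subunit, and ribosome synthesis itself was not measured. Their transcripts in the same samples are given for comparison. All 18 were rhythmic after phenelzine, with a median amplitude of 0.94 and a mean peak at 29.1 min. The fitted peaks of PRP43 and SNU13 were at 29.8 ± 0.46 and 30.1 ± 0.50 min (SE). These SEs, and those of peaks below, hold for a fixed period of 48 min. The smoothed PRP43 maxima after phenelzine were 48 and then 56 min apart, a shift between cycles that the SEs do not cover. No other gene of the spliceosome set had an amplitude above 0.37, and the median of the 18 UTP genes lay between the amplitudes of PRP43 and SNU13.

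**Figure D2:**
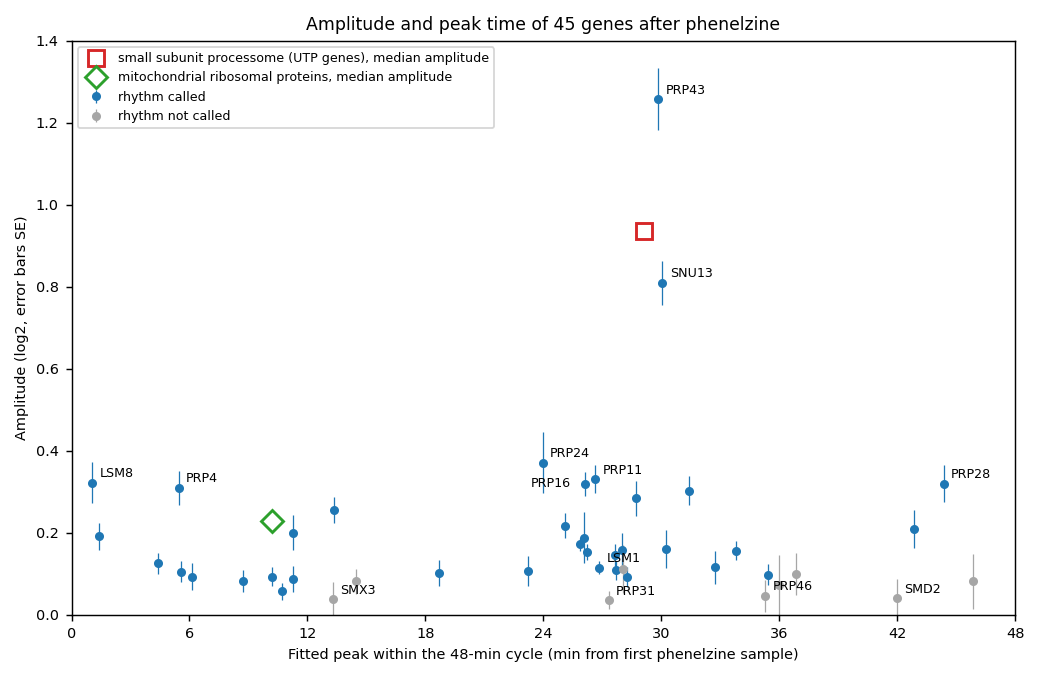
Rhythm amplitude after phenelzine (log2, vertical axis, bars are SE) against the fitted peak within the 48-min cycle (min, horizontal axis) for the 45 genes. Blue points passed the test and grey points did not, and open symbols mark the median amplitude and mean peak of the UTP and mitochondrial ribosomal protein genes. PRP43 (1.26) and SNU13 (0.81) lie near the UTP symbol, and all other points are at or below 0.37.

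The Sm ring genes cycled by little after phenelzine. There 5 of 7 were rhythmic, with a median amplitude of 0.10, and in the control 4 of 7 were, with a median of 0.17. For this and each group of genes below, the shares over all tested probe sets were 87.8% with phenelzine and 69.4% in the control. SMD1 gave 0.38 ± 0.05 (SE, adjusted p = 0.00022) in the control and 0.16 ± 0.05 (adjusted p = 0.0076) with phenelzine. SMD2 gave 0.28 ± 0.07 (adjusted p = 0.0080) in the control and 0.04 ± 0.05 (adjusted p = 0.71) with phenelzine. SMX3, which encodes the SmF subunit, had amplitudes of 0.05 and 0.04 and passed in neither group.

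Among the 8 Lsm ring genes, 7 were rhythmic with phenelzine (median amplitude 0.13) and 4 in the control (median 0.11). Lsm1 and Lsm8 occupy the same place in 2 rings that share the other Lsm subunits: Lsm8 in the nuclear ring on U6 RNA, and Lsm1 in the cytoplasmic ring that promotes removal of the messenger RNA cap. Their transcripts peaked at opposite parts of the cycle. LSM8 ran from 7.33 through 7.75 to 8.27 in the control and from 6.98 through 7.92 to 8.42 with phenelzine, with an amplitude of 0.32 in each group (SE 0.07 and 0.05, adjusted p = 0.0061 and 2.1e-06). LSM1 ran from 11.04 through 11.17 to 11.33 and then from 10.996 through 11.14 to 11.34, with an amplitude of 0.11 in each group (SE 0.03 and 0.02, adjusted p = 0.011 and 1.2e-07). For both genes the control and phenelzine values overlapped. After phenelzine the fitted peak of LSM8 was at 1.1 ± 1.2 min and that of LSM1 at 26.8 ± 1.0 min (SE). The smoothed maxima of LSM8 fell at -4, 56 and 96 min, and those of LSM1 at -20, 24, 72 and 128 min. These maxima never coincided.

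**Figure D3:**
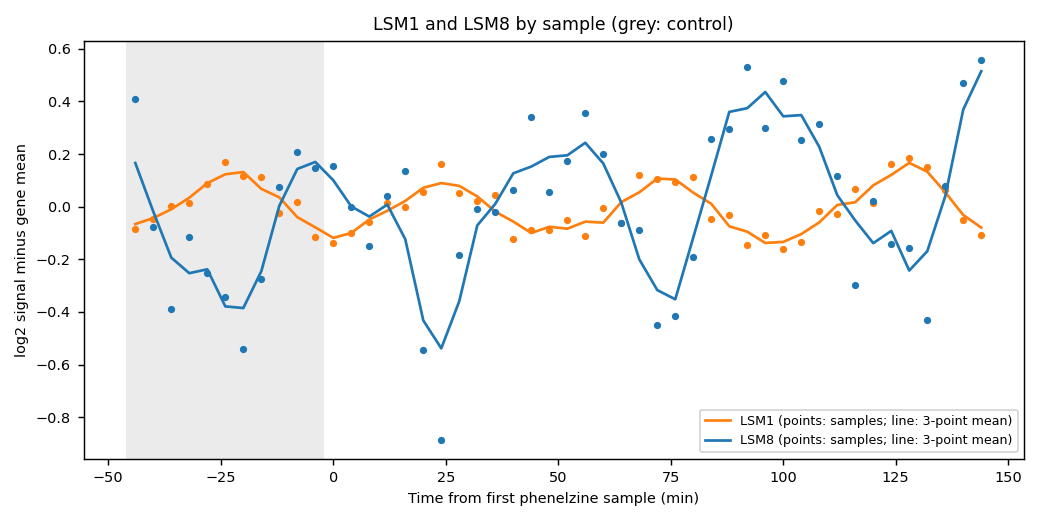
Log2 signal minus the gene's mean (vertical axis) of LSM1 and LSM8 in each of the 48 samples against time from the first phenelzine sample (min, horizontal axis). Points are samples, lines are 3-point running means and grey marks the control. LSM8, with an amplitude of 0.32, is high while LSM1, with an amplitude of 0.11, is low, in the control and after phenelzine.

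LSM3, LSM5 and LSM6, which belong to both rings, peaked between 27.6 and 28.3 min, near LSM1, and LSM7 was not rhythmic. LSM2 and LSM4, also shared by both, peaked at 11.3 and 8.7 min. LSM12, a related gene whose product is in neither ring, was rhythmic with an amplitude of 0.26 and a peak at 13.3 min.

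The U1 snRNP, which first recognises the start of the intron, was represented by 5 genes. After phenelzine 3 of them were rhythmic, with a median amplitude of 0.11, and 2 were in the control. PRP39 peaked at 33.8 min and SNU71 at 4.4 min. PRP42 gave 0.22 ± 0.05 (SE, adjusted p = 0.0037) in the control and 0.08 ± 0.07 (adjusted p = 0.50) with phenelzine. All 3 SF3a genes of the U2 snRNP, which binds the branch site, were rhythmic with phenelzine, as were 87.8% of all tested probe sets. The SF3a peaks were spread out, at 23.2 min for PRP9, 26.6 min for PRP11 and 42.9 min for PRP21. PRP11 was the most variable of these, with log2 values from 9.66 through 9.94 to 10.19 in the control and from 9.46 through 9.86 to 10.60 with phenelzine, which overlap. Its amplitude was 0.22 ± 0.04 in the control (adjusted p = 0.0019, but 0.89 on the values as deposited) and 0.33 ± 0.03 with phenelzine (adjusted p = 3.9e-10).

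Of 10 genes of the U4/U6.U5 tri-snRNP, which carries the catalytic RNAs into the spliceosome, 8 were rhythmic after phenelzine and 5 in the control, with a median amplitude of 0.19 in both. With phenelzine SNU13 was the only one above 0.31. PRP8, which encodes the scaffold around the catalytic centre, had an amplitude of 0.17 ± 0.02 and a peak at 25.9 min, and the GTPase gene SNU114 had 0.22 ± 0.03 and 25.1 min. PRP4, a U4/U6 protein gene, peaked at another time, 5.5 ± 1.0 min. Its log2 signal ran from 8.76 through 9.30 to 9.53 in the control and from 8.73 through 9.32 to 9.86 with phenelzine, and the groups overlapped. The PRP4 amplitude was 0.35 ± 0.05 (adjusted p = 0.00029) and then 0.31 ± 0.04 (adjusted p = 1.5e-07). PRP3, whose product binds Prp4, peaked at 6.1 min. PRP31, whose product is also a U4/U6 protein, had the smallest amplitude of the 45 genes, 0.04 ± 0.02 (adjusted p = 0.31), after 0.08 ± 0.04 in the control (adjusted p = 0.23).

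The 6 helicase genes were all rhythmic after phenelzine, with a median amplitude of 0.31, and 4 were in the control. Over all tested probe sets these shares were 87.8% and 69.4%. The helicase genes are named here in the order in which their products act. The transcript of PRP5, whose product helps U2 to bind, peaked at 10.7 min, and that of PRP28, whose product displaces U1, at 44.4 min. PRP2, needed for the final activation, peaked at 31.4 min, and PRP16, which acts between the catalytic steps, at 26.1 min. PRP22, which releases the spliced message, peaked at 11.3 min, and PRP43 at 29.8 min. The peaks did not follow the order of action. PRP28 ran from 7.53 through 7.93 to 8.33 in the control and from 7.38 through 7.99 to 8.49 with phenelzine. Its amplitude was 0.27 ± 0.06 (adjusted p = 0.0044) and then 0.32 ± 0.05 (adjusted p = 2.8e-07). PRP16 ran from 8.81 through 9.14 to 9.55 and then from 8.78 through 9.21 to 9.71, with amplitudes of 0.26 ± 0.05 (adjusted p = 0.00099) and 0.32 ± 0.03 (adjusted p = 1.5e-11). Both genes covered much the same range in the 2 groups. On the values as deposited, the PRP16 rhythm missed the threshold in the control (adjusted p = 0.46) and with phenelzine (adjusted p = 0.067).

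The Prp19 complex stabilises the activated spliceosome, and Prp45 and Prp46 join it there. PRP19 peaked at 26.2 min (amplitude 0.15) and PRP45 at 5.5 min (amplitude 0.10), and both passed the test with phenelzine. PRP46 had an amplitude of 0.03 ± 0.05 in the control (adjusted p = 0.86) and 0.05 ± 0.04 with phenelzine (adjusted p = 0.54). PRP24, whose product anneals U4 with U6 RNA, had the third largest amplitude of the set with phenelzine, 0.37 ± 0.07 (adjusted p = 9.4e-05), after 0.26 ± 0.10 in the control (adjusted p = 0.084). Its log2 signal ran from 7.48 through 8.02 to 8.53 in the control and from 6.94 through 8.11 to 9.02 with phenelzine, so the phenelzine values enclosed those of the control. PRP18, a factor of the second catalytic step, passed in neither group.

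The peaks of the 36 rhythmic genes were uneven over the 48-min cycle. Of them, 19 (52.8%) peaked from 24 to 36 min, 11 (30.6%) from 0 to 12 min, 4 (11.1%) from 12 to 24 min and 2 (5.56%) from 36 to 48 min. Over the 4683 rhythmic genes of the whole array, the shares in the same order were 26.4%, 36.2%, 19.8% and 17.5%. All 18 UTP genes, 98 of 109 cytosolic ribosomal protein genes and 28 of 30 RNA polymerase genes peaked from 24 to 36 min, and 45 of 55 mitochondrial ribosomal protein genes from 0 to 12 min. These are counts of genes that share the same samples, given without a test.

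The median peak was that of PRP11, at 26.6 min. The genes farthest before it were SNU71, PRP4 and PRP45, at -22.2, -21.2 and -21.1 min from it, and those farthest after it were SNU23, LSM8 and PRP28, at 22.8, 22.4 and 17.7 min. Near the opposite side of a 48-min cycle, before and after have little meaning, and SNU23 (1.4 min), LSM8 (1.1 min) and SNU71 (4.4 min) in fact peaked close together. For the 11 genes with an amplitude over 0.25, the smoothed maxima were a median of 48 min apart (22 intervals, SD 8.43), against a median of 40 min without smoothing. The smoothed intervals ran from 16 to 56 min. They come from genes read in the same samples, so their SD does not measure the spread of the cycle length. The 11 genes were picked by their fit to a 48-min period, so the median interval is not independent of that period.

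A difference in rhythm between the control and the first 11 phenelzine samples was called for 1 of the 45 genes (2.22%), LSM2, against 1.62% of all tested probe sets. LSM2 encodes a subunit common to both Lsm rings. In the control its log2 signal stayed between 12.18 and 12.45 around a median of 12.32. After phenelzine it climbed from 12.45 at 0 min to 12.88 at 16 min, and stood at 12.22 at 20 min. The fitted 44-min amplitude was 0.06 in the control and 0.30 in the first phenelzine cycle, and the size of the interaction was 0.29 ± 0.06 (SE, limma, Benjamini-Hochberg adjusted p = 0.049). The call is at the threshold and was lost when all probe sets were kept (adjusted p = 0.051) and on the values as deposited (adjusted p = 0.44). Without the sample at 16 min it was lost as well (0.25, adjusted p = 0.11). It was also lost with centred columns, with a pseudocount added to the signals and with eBayes without the trend. None of the 45 genes passed under those settings. For PRP43 and SNU13 the same test gave adjusted p of 0.23 and 0.28, and for PRP46 0.65.

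The mean level changed little. Between 37 phenelzine and 11 control samples, 2 of 45 genes (4.44%) passed, both higher, against 0.465% of all tested probe sets in either direction and 0.354% higher (limma, Benjamini-Hochberg adjusted p under 0.05). The median difference over the 45 genes was 0.01 and over all tested genes 0.00 on the log2 scale.

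PRP46 had log2 values of 9.20, 9.33 and 9.46 (lowest, median, highest) in the control and 9.19, 9.60 and 9.86 with phenelzine, and 25 of 37 phenelzine samples were above the highest control. The mean was 9.33 ± 0.09 (SD, n = 11) against 9.57 ± 0.17 (SD, n = 37), a difference of 0.24 ± 0.06 (SE, adjusted p = 0.028). The difference came with the later samples. The mean was 9.41 in the first cycle after phenelzine, 9.56 in the second and 9.72 in the third. On the arrays before the missing number the difference was 0.12 (adjusted p = 0.61), and with linear time and cycle phase as covariates it was -0.06 (adjusted p = 0.47). With windows of 4 successive arrays as a random block the adjusted p was 1.00, and with the 44-min pairs as blocks the difference was 0.07 (adjusted p = 0.46).

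PRP22 had log2 values of 9.87, 10.03 and 10.18 in the control and 9.97, 10.20 and 10.70 with phenelzine, and 20 of 37 phenelzine samples were above the highest control. The means were 10.01 ± 0.10 (SD, n = 11) and 10.21 ± 0.15 (SD, n = 37), a difference of 0.19 ± 0.05 (SE, adjusted p = 0.046). Its highest value, 10.70, was at 16 min, the sample at which 6 of the 45 genes (LSM2, LSM4, LSM7, LSM12, PRP22 and PRP42) had their highest phenelzine value. The share of all tested genes with their highest value in that sample is not given here. Without that sample the difference was 0.18 (adjusted p = 0.028). On the arrays before the missing number the difference was 0.20 with an adjusted p of 0.18, and with columns centred instead of quantile-normalized the adjusted p was 0.061. With windows of 4 successive arrays as a random block its adjusted p was 1.00. Neither call held on the values as deposited (adjusted p = 1.00 for both).

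**Figure D4:**
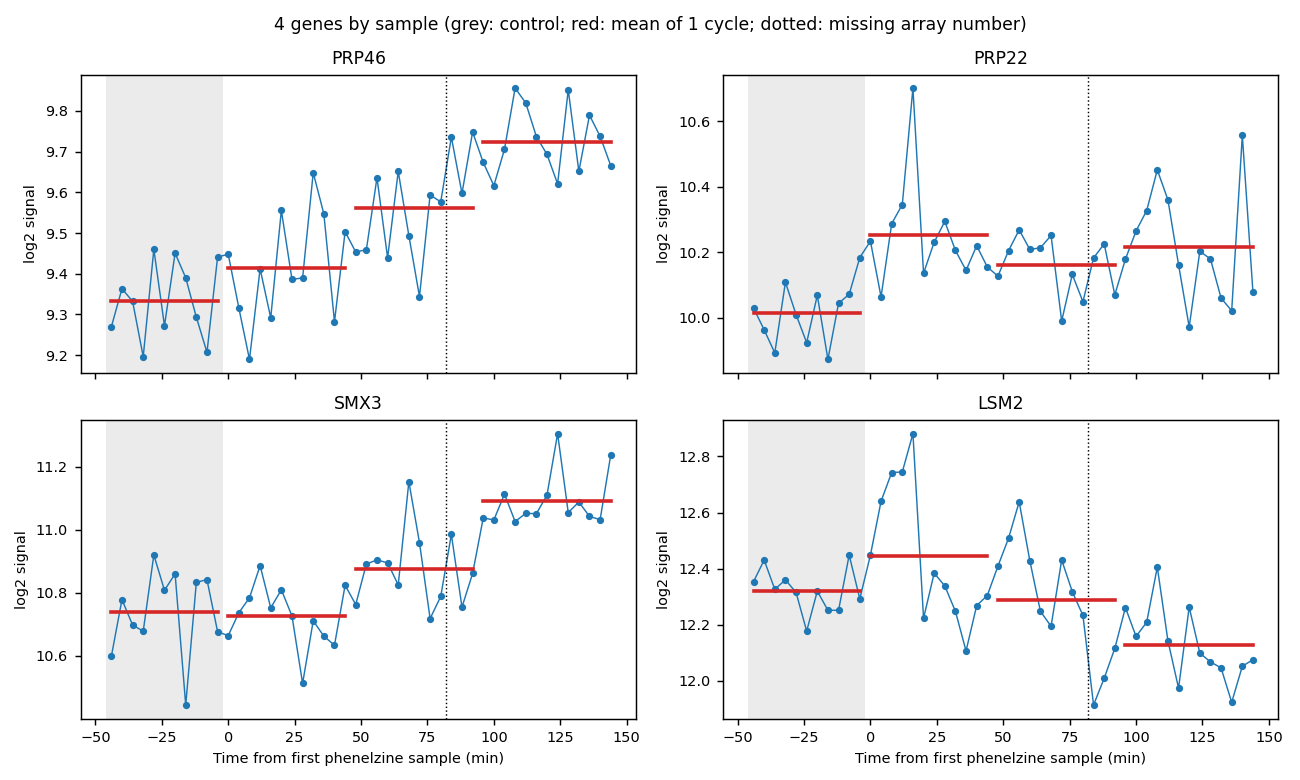
Log2 signal (vertical axis) of PRP46, PRP22, SMX3 and LSM2 in each of the 48 samples against time from the first phenelzine sample (min, horizontal axis). Grey marks the control, red bars are the means of single cycles, and the dotted line marks the missing array number. PRP46 steps from 9.41 through 9.56 to 9.72 over the 3 phenelzine cycles, and LSM2 and PRP22 each have their highest value at 16 min.

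The first phenelzine cycle was then compared with the untreated one sample by sample, each control sample with the phenelzine sample 44 min later (11 pairs). Of the 45 genes 3 passed (6.67%), 1 higher and 2 lower, against 8.49% of all tested probe sets, 4.04% higher and 4.45% lower. PRP22 was higher in 11 of 11 pairs, by 0.25 ± 0.05 (SE, limma with pairs as blocks, Benjamini-Hochberg adjusted p = 0.016). SMX2, which encodes SmG, fell by 0.14 (SE 0.03, adjusted p = 0.021) and was higher in 0 of 11 pairs, with means of 11.12 ± 0.06 and 10.98 ± 0.07 (SD, n = 11 each). PRP45 fell by 0.19 (SE 0.05, adjusted p = 0.025) and was higher in 1 of 11 pairs, with means of 9.79 ± 0.12 and 9.60 ± 0.13 (SD, n = 11 each).

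The ranges of the paired cycles still overlapped. SMX2 lay between 11.03 and 11.21 in the control and between 10.87 and 11.08 in the first phenelzine cycle, and PRP45 between 9.57 and 9.93 and then between 9.30 and 9.81. PRP46 differed by 0.07 ± 0.06 (adjusted p = 0.46). With a lag of 40 or 48 min in place of 44, or without the pairing, none of the 45 genes passed. The shares of all tested probe sets under those settings are not given here.

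Over the 37 phenelzine samples, 18 of 45 genes (40.0%) had a linear slope beside the 48-min cycle, 10 upward and 8 downward, against 39.8% of all tested probe sets, 20.6% upward and 19.2% downward (limma, Benjamini-Hochberg adjusted p under 0.05). The share of drifting genes in the set was thus close to that of the array. The 5 steepest rises were those of SMX3 (0.22 log2 per hour, adjusted p = 8.4e-09), PRP46 (0.19, adjusted p = 1.8e-06), PRP18 (0.15, adjusted p = 0.014), PRP4 (0.13, adjusted p = 0.0050) and LSM8 (0.13, adjusted p = 0.028). The 5 steepest falls had slopes of -0.26 for PRP42 (adjusted p = 0.00030), -0.20 for LSM2 (adjusted p = 6.5e-06), -0.19 for SMD2 (adjusted p = 0.00012), -0.18 for PRP28 (adjusted p = 0.00035) and -0.17 for SMD1 (adjusted p = 0.0013).

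On the quantile-normalized scale, genes of the same ring moved in opposite directions. In the Sm ring SMX3 and SMB1 rose while SMD2 and SMD1 fell, and in the Lsm ring LSM8, LSM5 and LSM3 rose while LSM2 and LSM6 fell. The split between rises and falls depended on the scale. As deposited, 11 genes passed, 11 upward and 0 downward, with the median of all genes at 0.11 log2 per hour, and with centred columns it was 8 upward and 10 downward. The shares of all tested probe sets that passed on those scales are not given here. With windows of 4 successive arrays as a random block 10 genes passed, 4 upward and 6 downward, against 21.2% of all tested probe sets. PRP18 (adjusted p = 0.11) and LSM8 (adjusted p = 0.087) were among those lost.

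Most of these calls needed the 16 arrays after the missing number, and the fit without them was less precise. On the 21 phenelzine arrays before that number 2 genes passed, SNU13 with a slope of -0.41 (adjusted p = 0.020) and PRP6 with -0.28 (adjusted p = 0.044). The share of all tested probe sets that passed on those arrays is not given here. Of the 18 genes with a slope over all arrays, 17 had the same sign on these 21, all but LSM5, and 1 passed. SMX3 had a slope of 0.18 there (adjusted p = 0.053), PRP46 of 0.14 (adjusted p = 0.21) and PRP42 of -0.35 (adjusted p = 0.088). Their SEs were 0.057, 0.072 and 0.13 there, against 0.024, 0.027 and 0.055 over all phenelzine arrays. The part of the change in the dap ratio at the missing number in these slopes was not tested.

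**Figure D5:**
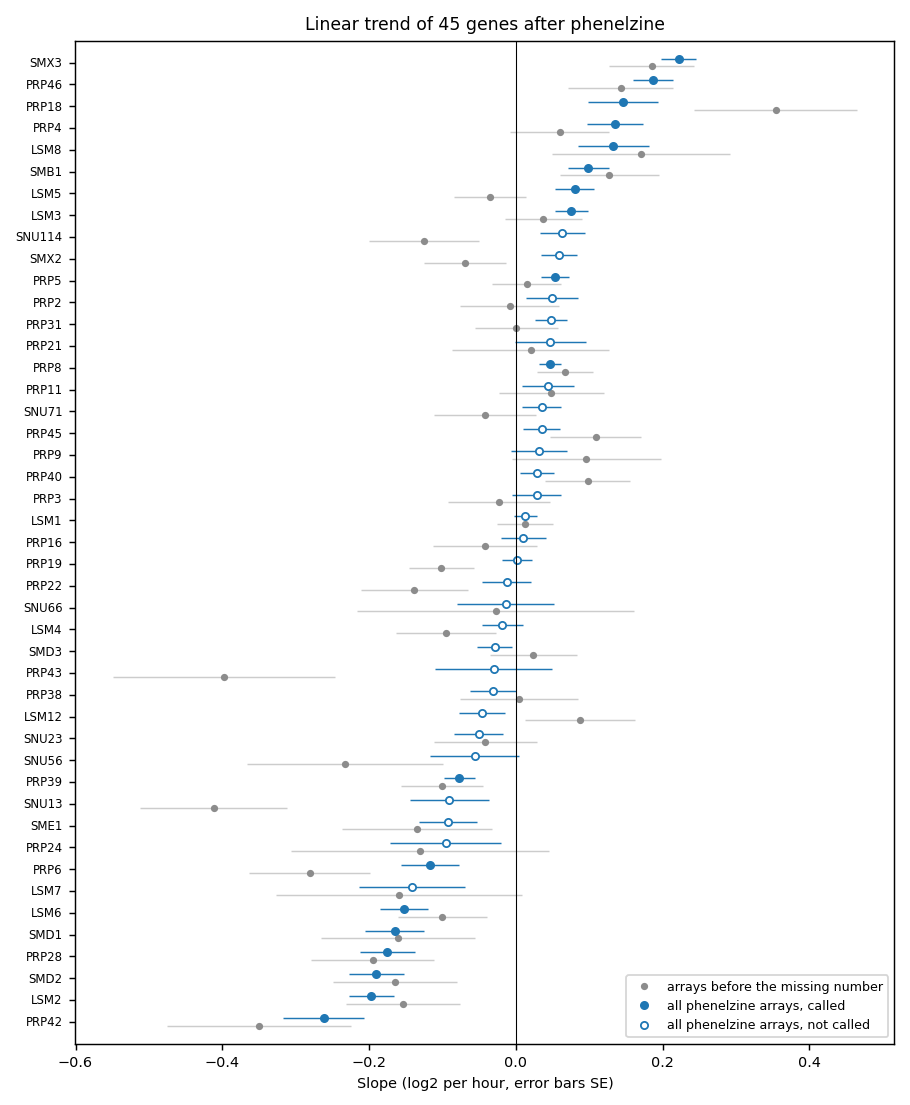
Slope of each of the 45 genes over the phenelzine samples (log2 per hour, horizontal axis, bars are SE), ordered by slope. Filled blue points passed the test, open ones did not, and grey points are slopes on the 21 arrays before the missing number. SMX3 (0.22) and PRP46 (0.19) are at the top and PRP42 (-0.26) is at the bottom.

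Successive cycles were compared in the same way as the first. From the first to the second phenelzine cycle (12 pairs, 48 min apart) 7 of 45 genes passed (15.6%), 3 higher and 4 lower, against 22.1% of all tested probe sets, 10.9% higher and 11.2% lower. The tri-snRNP genes PRP6 and SNU13 fell by 0.25 (SE 0.04, adjusted p = 0.00099, higher in 0 of 12 pairs) and 0.29 (SE 0.08, adjusted p = 0.017, higher in 3 of 12). PRP42 fell by 0.30 (SE 0.07, adjusted p = 0.0097) and LSM2 by 0.16 (SE 0.05, adjusted p = 0.025). For SNU13 the means were 12.46 ± 0.41 and 12.17 ± 0.72 (SD, n = 12 each), so the shift is small beside its cycle, and 15 of 18 UTP genes fell over the same step. SMX3 rose by 0.15 (SE 0.03, adjusted p = 0.0070, higher in 12 of 12 pairs), PRP18 by 0.22 (SE 0.07, adjusted p = 0.041) and PRP46 by 0.15 (SE 0.05, adjusted p = 0.043). As deposited, 1 of these 7 passed, with 0 higher and 1 lower, and with centred columns 1 was higher and 6 lower. With a lag of 44 or 52 min 2 genes passed. Without the pair that holds the sample at 16 min 6 passed, 1 higher and 5 lower, and PRP46 (adjusted p = 0.089) and PRP18 (adjusted p = 0.067) were lost. The shares of all tested probe sets under these other scales, lags and pairs are not given here.

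From the second to the third cycle (13 pairs, 52 min apart) 10 of 45 genes passed (22.2%), 6 higher and 4 lower, against 16.7% of all tested probe sets, 9.01% higher and 7.67% lower. SMX3 rose again, by 0.22 (SE 0.04, adjusted p = 0.0012, higher in 12 of 13 pairs), as did PRP46, by 0.17 (SE 0.04, adjusted p = 0.0077, higher in 12 of 13). PRP4 (0.17), LSM5 (0.16), SNU114 (0.15) and SMX2 (0.13) were also higher, each in 10 or 11 of 13 pairs, with adjusted p from 0.0070 to 0.047. SMD2 fell by 0.20 (SE 0.05, adjusted p = 0.010), LSM2 by 0.16 (SE 0.04, adjusted p = 0.0096), LSM6 by 0.16 (SE 0.05, adjusted p = 0.033) and SMD1 by 0.14 (SE 0.05, adjusted p = 0.043). None of the 18 UTP genes passed here. As deposited, with the median of all genes at 0.19, 15 genes passed and all 15 were higher, against 38.0% of all tested probe sets, and LSM2, LSM6 and SMD1 changed sign. With a lag of 48 min 0 genes passed (12 at an unadjusted p under 0.05 in limma), and with 56 min 5 did. The shares of all tested probe sets at those lags are not given here. All 13 third-cycle arrays of this comparison, and 3 of the second cycle, came after the missing number, and the part of the dap difference in these calls was not tested.

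SMX3 and PRP46 passed in the same direction at both steps. For SMX3 the mean was 10.73 ± 0.10 (SD, n = 12) in the first phenelzine cycle, 10.87 ± 0.12 (n = 12) in the second and 11.09 ± 0.09 (n = 13) in the third, and the lowest third-cycle value, 11.03, was above the highest first-cycle value, 10.89. For PRP46 the third-cycle values, from 9.62 to 9.86, overlapped the first-cycle ones, from 9.19 to 9.65, at the edge. LSM2 fell at both steps, with cycle means of 12.44 ± 0.25, 12.29 ± 0.21 and 12.13 ± 0.13 (SD). Neighbouring steps share the second cycle, so they are not independent.

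For comparison, 52 other splicing genes with different names were listed, all of them tested. After phenelzine 50 (96.2%) were rhythmic, against 87.8% of all tested probe sets, with a median amplitude of 0.21. In the control 36 (69.2%) were, against 69.4%, with a median of 0.18. The largest with phenelzine were BUD31 (0.60), HSH49 (0.48), AAR2 (0.44) and SNP1 (0.44), and in the control HSH49 (0.57), IST3 (0.49), BUD31 (0.47) and CWC25 (0.47). BUD31, HSH49, IST3 and CWC25 encode proteins bound to the U2 snRNP or the activated spliceosome, AAR2 a U5 assembly factor and SNP1 a U1 protein. The 50 peaks were spread evenly, 11 from 0 to 12 min and 13 in each of the other 12-min windows.

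No other splicing gene passed in the level comparison, against 0.465% of all tested probe sets. The largest difference there was -0.21 for HSH49. In the first cycle 2 of 52 (3.85%) passed, against 8.49% of all tested probe sets. They were YJU2, which encodes a factor of the branching step, with -0.27 (adjusted p = 0.014) and STO1, which encodes the large cap-binding subunit, with 0.17 (adjusted p = 0.046). The rhythm differed between control and first phenelzine cycle for 1 (1.92%), against 1.62% of all tested probe sets. This was SPP2, whose product activates Prp2, with an interaction of 0.35 (adjusted p = 0.034). A slope passed in 21 (40.4%), 15 upward and 6 downward, against 39.8% of all tested probe sets, 20.6% upward and 19.2% downward. The largest slopes were those of HSH49 (-0.21), IST3 (-0.21), CWC22 (0.19) and STO1 (-0.18). From the first to the second cycle 1 (1.92%) passed, STO1 (-0.20), against 22.1% of all tested probe sets. From the second to the third 12 (23.1%) did, 6 higher and 6 lower, against 16.7%. These were led by IST3 (-0.26), HSH49 (-0.24), AAR2 (-0.23) and CWC25 (-0.21).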

How the data were processed

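Total RNA of 48 samples was measured on 1-colour Affymetrix Yeast 2.0 arrays with 5498 probe sets for Saccharomyces cerevisiae and 1746 for fission yeast. The deposited values are linear signal intensities made by the authors with GCOS, per the submitters' processing notes. No label states its version, algorithm or scaling target, so scale and centring between columns are unknown. Groups and times came from the sample labels.

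Signals below 1 were set to 1, log2-transformed and quantile-normalized. Fission yeast probe sets served as background: the 5372 Saccharomyces probe sets whose mean exceeded their 90th percentile (log2 3.00) were tested, and 126 were left out as dim. The fits were made with limma 3.58.1 in R 4.3.3 (lmFit, and eBayes with a mean-variance trend), with Benjamini-Hochberg adjustment over all 5372 and a threshold of 0.05. Scripts were tested on simulated data. Plots used matplotlib 3.10.9 (Python 3.11.15). The number of arrays limits the precision.

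The mean level was compared over all arrays. Rhythms were fitted as cosine and sine terms of 44 min (control) and 48 min (phenelzine), and their difference as an interaction over 11 and 11 arrays. The 48-min period came from earlier results of these data, so the phenelzine rhythm tests are not independent of that choice. Cycles were compared in pairs a fixed lag apart. That pairing comes from the labelled times and not from replicate numbers, and in the first cycle the deviations of paired arrays from their group means correlated between 0.52 and 0.80 over probe sets. Observed maxima were taken from 3-point running means.

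The 45 genes, the lists and the tests were chosen with earlier results of these data known. Values are given in full for PRP46, genes past the threshold in the level and cycle comparisons and in the rhythm difference (at most 8 each way), the 8 largest and 4 smallest phenelzine amplitudes, the 5 steepest slopes each way and the 3 peaks farthest from the median each way. Of the other splicing genes, the 4 largest past the threshold in each comparison are named. LSM1 and the other genes named for contrast were chosen after their values were seen. Other normalizations, filters, lags, periods, covariates and array subsets were tried. No sequences were used here.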

Additional observations from a re-analysis of the deposited data

Results flagged for a closer look

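LSM2, which encodes a subunit of both Lsm rings, was the only one of the 45 genes whose 44-min rhythm differed between the untreated cycle and the first phenelzine cycle by a test of the difference itself. The size of the interaction was 0.29 on the log2 scale (limma, Benjamini-Hochberg adjusted p = 0.049), with amplitudes of 0.06 and 0.30. In the 11 samples from 0 to 40 min, 5 in a row from 0 to 16 min rose from 12.45 to 12.88, and the sample at 20 min was at 12.22. The LSM2 call was lost on the values as deposited, with centred columns and with a pseudocount added to the signals. It was also lost without the filter on low signal and with eBayes without the trend. Counts of called genes under these and the other alternatives are given under the processing choices. At 16 min 6 of the 45 genes (LSM2, LSM4, LSM7, LSM12, PRP22 and PRP42) had their highest phenelzine value. The share of all tested genes with their highest value on that array is not given here. Without that array the LSM2 interaction was 0.25 (adjusted p = 0.11).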

How the results depend on the processing

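Of the alternative values for single genes, 482 kept the direction and side of the threshold of the reported value, 94 kept the direction and no longer passed, 3 newly passed and 5 changed sign. The sign changes were PRP46 in the level comparison with linear time and phase as covariates (-0.0635), PRP46 in the first cycle on the values as deposited (-0.0328), which passed in neither, and LSM2 (0.0463), LSM6 (0.0392) and SMD1 (0.024) from the second to the third cycle on the values as deposited. In the level comparison 2 genes passed as reported, 1 with centred columns, 5 with phase as a covariate (9.29% of all probe sets) and 10 with linear time and phase (16.6%). There were 0 as deposited (1 at an unadjusted p under 0.05), 0 on arrays before the missing number (4) and 0 with windows of 4 arrays as a random block (2). The replicate block of lag pairs 44 min apart gave 3, of which 1 was shared with the 2 reported, and PRP46 was at 0.07 (adjusted p = 0.46). In the first cycle the 3 calls became 0 with lags of 40 or 48 min and 0 with no replicate block (5 at an unadjusted p under 0.05 in each). The split of 1 higher and 2 lower was 0 and 2 as deposited and 2 and 2 with centred columns, and the median of all genes as deposited was -0.13. The phenelzine rhythm was called for 36 genes and for 21 as deposited, 18 of them shared. The rhythm difference was called for 1 gene and for 9 and 7 with periods of 40 and 48 min, where 28.4% and 20.8% of all probe sets passed. It was called for 0 as deposited, 0 with centred columns (5 at an unadjusted p under 0.05 in both), and 0 with a pseudocount of 50, no filter or eBayes without the trend (9 in each), and 0 without the array at 16 min (6), an alternative chosen after seeing the data that left the other counts tried within 1.5 times. Slopes passed for 18 genes, 11 as deposited, 2 before the missing number and 10 with windows as a random block. The second against the first cycle gave 7 calls, 1 as deposited, 2 with a lag of 44 min, 2 with 52 min and 5 on the 9 pairs before the missing number, also chosen after seeing the data. The third against the second gave 10 calls, 6 with centred columns, 5 with a lag of 56 min and 0 with 48 min (12 at an unadjusted p under 0.05). The cause was not tested in any of these. Counts for the control rhythm stayed within 16 to 24.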
